A study of Mus musculus with 9 samples.

Results

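The genes of cholesterol and fatty acid synthesis described here were 31 mouse genes listed by name for their place in these pathways. The rule used no measured value, although the list was drawn up with earlier results of these data known. They comprised 6 enzymes of the mevalonate pathway, 11 of the steps from squalene to cholesterol, 5 genes of the control of SREBP transcription factors, 6 of fatty acid synthesis and 3 of sterol efflux and transfer. Each gene was represented by its brightest probe on the array, matched through the probe's RefSeq accession. All 31 genes had a probe, and 29 of them belonged to the 13120 genes tested, whose probe exceeded background clearly throughout 1 or more groups of 3 arrays. Lanosterol synthase (Lss) and a stearoyl-CoA desaturase (Scd1) were the 2 that were not.

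RNA was measured in LSK cells of C57BL/6 mice, the lineage-negative, Sca-1 and Kit positive fraction of the bone marrow that holds stem cells and multipotent progenitors. All groups carried a GFP-labelled vector and were sorted from transplanted mice. R882H cells were transduced with DNMT3A carrying the R882H substitution, WT cells with wild-type DNMT3A, and EV cells with the empty vector, with 3 arrays in each group. DNMT3A methylates cytosines in DNA that were not methylated before, and patients with acute myeloid leukaemia often carry the R882H form. The comparisons ask how lipid synthesis transcripts differ with the substituted enzyme and with the wild-type enzyme. Each array was hybridised with cDNA amplified from 3.67 ng of total RNA. The promoter of the vector, the number of mice behind each array and the age of the mice are not given in the sources used here. The labels do not say that replicates came from separate mice, so p-values here cover just the variation among these 9 arrays, part of which may be technical.

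Cholesterol is built from acetyl-CoA through mevalonate, farnesyl diphosphate, squalene and a series of sterol intermediates. When sterols in the endoplasmic reticulum are low, the escort protein SCAP carries the SREBP precursors to the Golgi for cleavage, and INSIG proteins hold them back when sterols are plentiful. SREBP2, encoded by Srebf2, mainly drives the cholesterol genes, and SREBP1, encoded by Srebf1, mainly the fatty acid genes. Excess sterol activates LXR receptors, which raise the efflux transporters ABCA1 and ABCG1. In mice these transporters restrain the proliferation of blood stem and progenitor cells.

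Promoter sequence was examined because SREBPs act through a known element, and 24 of the 31 genes had a promoter in the RefSeq table used (GRCm38.p6). Both strands of the 250 bases before each start were searched. The sterol regulatory element TCACNCCAC occurred in 1 of the 24 genes (4.17%), Hmgcs1, against 1.24% of the 10496 tested genes with a promoter. The E-box CACGTG occurred in 6 of 24 (25%), namely Abca1, Dhcr7, Hsd17b7, Insig1, Sc5d and Scap, against 9.53% of the tested genes. The NF-Y motif ATTGG, or CCAAT on the other strand, occurred in 19 of 24 (79.2%), against 40.3% of the tested genes. The LXR motif, a direct repeat of AGGTCA spaced by 4 bases, occurred in none of the 24. It also occurred in 0% of the 10496 tested genes, so its absence is not particular to this set. These matches describe the windows and are not sites of measured binding. Only the forms printed here were searched for, so a window without a match may hold another form of an element. The other 7 genes, Fdps, Fdft1, Sqle, Scd1, Scd2, Abcg1 and Stard4, could not be searched.

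The windows of 3 genes to which the values below return are shown 5′ to 3′ on the strand of the gene. Capitals mark TCACNCCAC, the form of the sterol regulatory element searched for, and the NF-Y motif in either orientation. Hmgcs1 was shown as the gene with a TCACNCCAC match, and Cyp51 and Fasn were chosen after their values were seen, for their small p-values. The Hmgcs1 window (chr13:119690101-119690350, plus strand) holds the sterol element 137 bases before the start and NF-Y motifs 237, 176 and 45 bases before it. The Cyp51 window (chr5:4104698-4104947, minus strand) holds 1 NF-Y motif, 29 bases before the start. The Fasn window (chr11:120824548-120824797, minus strand) holds NF-Y motifs 90, 62 and 59 bases before the start, the last 2 of which overlap on opposite strands.
Hmgcs1: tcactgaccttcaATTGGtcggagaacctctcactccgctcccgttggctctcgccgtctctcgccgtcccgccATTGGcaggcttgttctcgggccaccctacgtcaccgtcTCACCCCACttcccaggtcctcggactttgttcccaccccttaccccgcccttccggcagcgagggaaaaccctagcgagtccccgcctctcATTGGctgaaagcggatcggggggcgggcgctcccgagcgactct
Cyp51: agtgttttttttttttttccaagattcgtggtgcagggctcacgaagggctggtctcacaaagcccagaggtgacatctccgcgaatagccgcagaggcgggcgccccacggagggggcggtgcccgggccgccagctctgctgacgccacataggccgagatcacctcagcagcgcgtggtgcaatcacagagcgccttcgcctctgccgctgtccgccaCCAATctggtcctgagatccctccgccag
Fasn: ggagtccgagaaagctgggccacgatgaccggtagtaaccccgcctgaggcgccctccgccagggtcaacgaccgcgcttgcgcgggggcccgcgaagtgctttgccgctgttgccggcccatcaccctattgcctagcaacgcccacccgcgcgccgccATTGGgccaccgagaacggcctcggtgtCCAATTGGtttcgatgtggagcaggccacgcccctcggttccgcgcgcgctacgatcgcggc

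The arrays carried 62976 spots, none saturated, and 53.4% to 64.8% of the 55681 probes were well above background on each array. In the deposited table of processed values, 7 of the 9 columns did not match their own sample's array but a different one, in 4 cases from a different group. By their names, the table's R882H columns held R882H replicates 2 and 3 and WT replicate 3, its WT columns R882H replicate 1, WT replicate 2 and EV replicate 3, and its EV columns EV replicates 1 and 2 and WT replicate 1. Groups by these names therefore mix arrays that the scanner output labels differently. The values below follow the labels of the scanner output. For lipid genes given array by array, differences by the table's names are added where they alter the value. The 3 EV arrays shared a slide with WT replicate 1, WT replicates 2 and 3 shared one with R882H replicates 1 and 2, and R882H replicate 3 lay alone. No slide therefore held both R882H and EV arrays. With slide as a block, R882H minus EV values come through the WT arrays that link the slides, and R882H replicate 3 adds nothing to them. Of 6 LSK markers, 5 were well above background everywhere, and Slamf1 on 6 of the 9 arrays. Markers of other cells were present as well. Summed signal over the 75th percentile of each array for 6 granulocyte-monocyte markers, all well above background on every array, was 110 to 225 in R882H cells, 202 to 425 in WT cells and 166 to 534 in EV cells. B-lineage markers summed to 3.62 to 9.85 in R882H cells, 1.28 to 4.90 in WT cells and 1.50 to 2.32 in EV cells. The 6 proliferation genes summed to 142 to 169 in R882H cells, 150 to 188 in WT cells and 175 to 196 in EV cells. Megakaryocyte markers summed to 12.8 to 30.0 in R882H cells, 7.33 to 9.85 in WT cells and 6.30 to 15.6 in EV cells, and erythroid markers to 7.35 to 10.2 in R882H cells, 3.43 to 6.63 in WT cells and 2.90 to 16.5 in EV cells. The ranges of R882H and EV cells did not overlap for the B-lineage and proliferation sums, and those of R882H and WT cells did not for the megakaryocyte and erythroid sums. Such sums cannot tell fewer cells of a type from less RNA per cell, and the part of cell composition or proliferation in the differences below was not tested.

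No gene of the set changed at a Benjamini-Hochberg adjusted p under 0.05 in limma, and neither did any other gene (0% of the 13120 genes in each of the 3 comparisons). At an unadjusted p under 0.05, limma gave 1187 genes between R882H and EV cells, 1055 between R882H and WT cells and 781 between WT and EV cells. The lipid genes are therefore described by their values, and every difference named here failed the correction. Differences are in log2 units with the limma SE, and levels are log2 signal over the 75th percentile of each array, which can be compared between groups for a gene but not between genes. The 3 comparisons share groups with each other, so their values are not independent.

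Between R882H and EV cells, 19 of the 29 tested genes were lower in R882H cells and 10 higher, with a median difference of -0.14 against -0.018 over all genes tested. At an unadjusted p under 0.05 in limma there were 6 of the 29 (20.7%), against 9.05% of all genes. Fasn and Srebf1 were higher in R882H cells, and Hmgcs1, Pmvk, Nsdhl and Scd2 lower. Fasn was well above background on 1 of the 3 EV arrays. It passed the filter only through the groups where it was higher, so its place in these counts is uncertain. The arrays of the 2 groups did not overlap for 9 of the 29 (31%), against 18.4% of all genes. These were the 6 named, Mvk, which was higher, and Idi1 and Tm7sf2, which were lower. The count of 6 depended on single arrays. It was 3 without R882H replicate 1, 1 without R882H replicate 2, 3 without EV replicate 2 and 2 without EV replicate 3. With the columns of the authors' table grouped by their own names it was 1. That gene was Mvk, which was not among the 6. The count over all genes moved too, from 1187 to 665 without R882H replicate 2, 1423 without EV replicate 2 and 614 by those names.

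Between R882H and WT cells, 18 of the 29 genes were lower in R882H cells, with a median difference of -0.12 against -0.014 over all genes. Cyp51, which was higher, and Hmgcs1, which was lower, had an unadjusted p under 0.05 (6.9%), against 8.04% of all genes. The arrays did not overlap for 6 of the 29 (20.7%), against 15.4% of all genes: Cyp51 and Srebf1 were higher in R882H cells, and Hmgcs1, Idi1, Nsdhl and Elovl6 lower. The count of 2 was 1 without R882H replicate 2 and 4 without WT replicate 3. It was 4 with replicate number as a block and 0 by the names of the authors' table. Over all genes the count of 1055 was 707 without R882H replicate 2, 1269 without WT replicate 3 and 321 by those names. Between WT and EV cells, 16 of the 29 were lower in WT cells, with a median of -0.088 against 0.011 over all genes. This median turned to 0.037 without WT replicate 2, to 0.0047 without EV replicate 2 and to 0.012 with the mean of all detected probes of a gene. Fasn, which was higher, and Cyp51 and Scd2, which were lower, had an unadjusted p under 0.05 (10.3%), against 5.95% of all genes. That count of 3 became 6 without WT replicate 3, 5 with replicate number as a block and 0 by the names of the authors' table. Over all genes the count of 781 was 1282 without WT replicate 3. The arrays of these groups did not overlap for 5 of 29 (17.2%), against 10.1% of all genes. The 5 were Fasn, Cyp51, Scd2, Pmvk and Stard4. Fasn, in both counts, passed the filter only through the groups where it was higher.

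**Figure D1:**
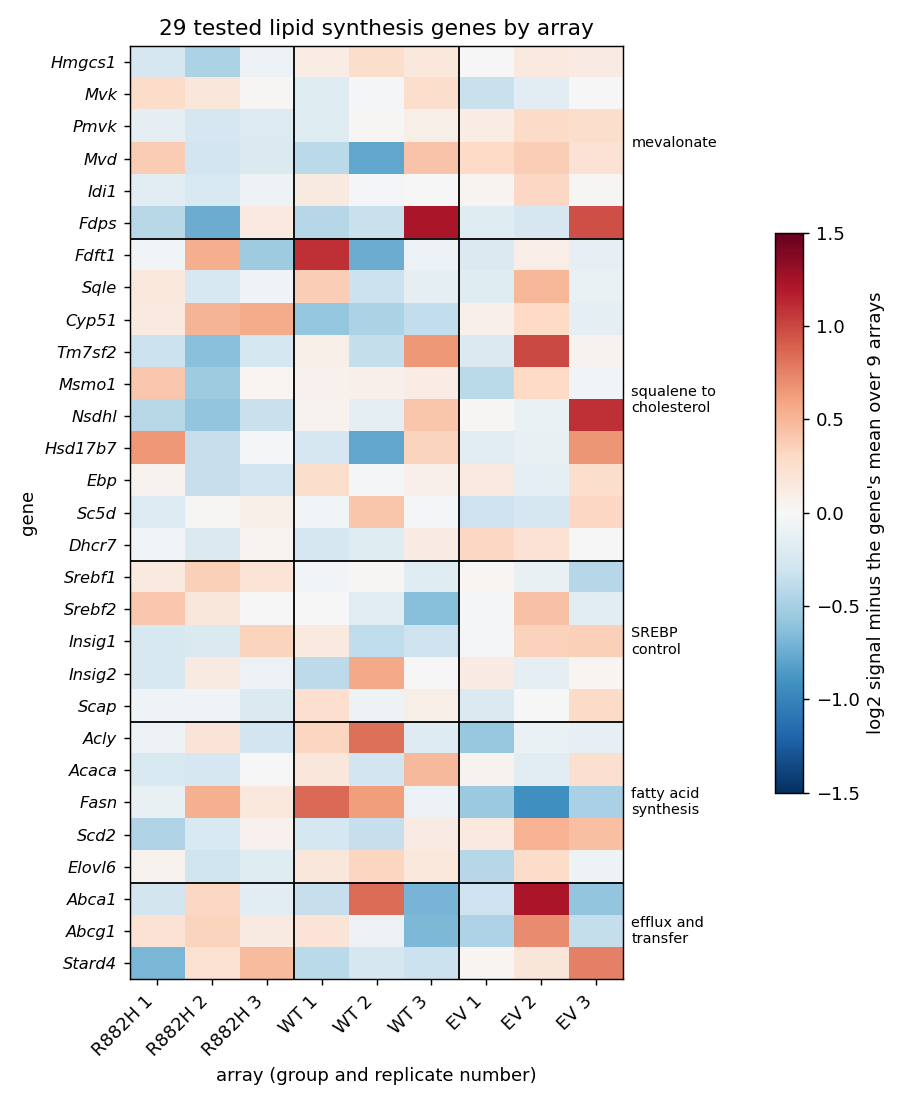
Heatmap of log2 signal minus each gene's own mean over the 9 arrays, for the 29 tested genes (rows, in blocks by role) and the arrays of the R882H, WT and EV groups (columns). Most rows of the mevalonate block are below their mean (blue) on the R882H arrays, while Fdps, Nsdhl and Abca1 are extreme on single arrays of the WT or EV groups.

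In the mevalonate pathway, 5 of the 6 genes were lower in R882H than in EV cells, with a median difference of -0.34, and 4 of the 6 were lower than in WT cells, with a median of -0.18. Both medians stayed below 0 under every alternative normalization, probe choice, block and left-out array that was run. Against EV cells the median ranged from -0.51 to -0.16, and against WT cells from -0.27 to -0.0053. None of these genes passed the correction.

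Hmgcs1 is the cytosolic synthase that makes HMG-CoA and had the TCACNCCAC match in its promoter. It read 1.90, 1.67 and 2.06 in R882H cells, 2.25, 2.41 and 2.31 in WT cells and 2.15, 2.29 and 2.27 in EV cells. Every R882H array lay below every WT and every EV array. The difference from WT cells was -0.45 ± 0.15 (limma unadjusted p = 0.0155, adjusted p = 0.551), a level 1.36-fold lower in R882H cells. Within the slide that held both groups it was -0.58, from 2 arrays against 2. The difference from EV cells was -0.36 ± 0.15 (unadjusted p = 0.041, adjusted p = 0.532 in limma). Grouped by the names of the authors' table it was -0.18 from WT cells and -0.22 from EV cells.

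Pmvk, phosphomevalonate kinase, read 3.25, 3.13 and 3.17 in R882H cells, 3.20, 3.40 and 3.46 in WT cells and 3.49, 3.67 and 3.64 in EV cells. The R882H arrays lay below all EV arrays and overlapped with WT replicate 1. Its difference from EV cells was -0.41 ± 0.14 (limma unadjusted p = 0.0169, adjusted p = 0.523), and a second probe gave -0.42. The R882H minus EV difference was -0.20 by the names of the authors' table. WT cells also lay below EV cells on every array, with a difference of -0.25 ± 0.14 (adjusted p = 0.874). By the names of the authors' table this WT minus EV difference was -0.028. Idi1, the isomerase of isopentenyl diphosphate, showed a similar order with smaller differences. It averaged 4.08 ± 0.076 in R882H cells, 4.27 ± 0.086 in WT cells and 4.36 ± 0.16 in EV cells (SD, n = 3 each), and its R882H arrays lay below all 6 others. The differences were -0.28 ± 0.14 from EV cells and -0.19 ± 0.14 from WT cells (limma adjusted p = 0.574 and 0.736), and -0.28 and -0.049 by the names of the authors' table.

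Mvk, mevalonate kinase, ran the other way, at -0.24, -0.34 and -0.49 in R882H cells, -0.69, -0.54 and -0.25 in WT cells and -0.84, -0.68 and -0.52 in EV cells. All R882H arrays lay above all EV arrays, although only just, and they overlapped with the WT arrays. The difference from EV cells was 0.33 ± 0.17 (limma unadjusted p = 0.0881, adjusted p = 0.576), and the second Mvk probe gave 0.42. With slide as a block it was 0.10 for the first probe. Mvd, the decarboxylase that forms isopentenyl diphosphate, averaged -1.03 ± 0.37 in R882H cells, -1.24 ± 0.62 in WT cells and -0.70 ± 0.077 in EV cells (SD, n = 3 each). Its EV arrays were tight while R882H and WT arrays were spread, so that the difference of -0.33 ± 0.31 between R882H and EV cells lay within an interval of -1.03 to 0.37. Fdps, farnesyl diphosphate synthase, is described with the replicate numbers.

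**Figure D2:**
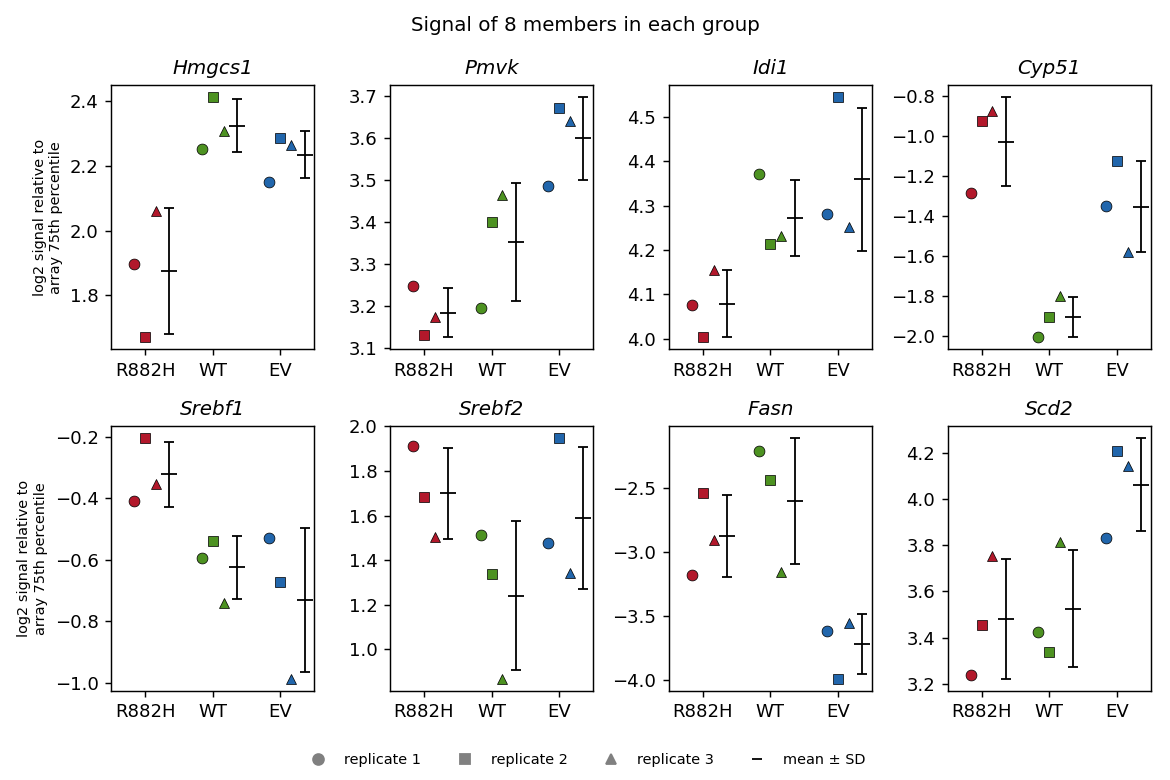
Log2 signal over the 75th percentile of each array for 8 genes, with a point per array (shape gives the replicate number) and the mean ± SD of each group beside the points, n = 3 each. R882H points lie below both other groups for Hmgcs1 and Idi1, WT points lie below both other groups for Cyp51, and EV points lie below both other groups for Fasn and above them for Scd2.

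The steps from squalene to cholesterol did not follow 1 direction. Between R882H and EV cells 6 of the 10 tested genes were lower and 4 higher, with a median of -0.08. Without EV replicate 1, 9 of 10 were lower (median -0.18), and likewise with arrays scaled to their median (-0.235, where all genes shifted to -0.17). The median was -0.245 without R882H replicate 1 and turned to 0.014 with array weights. Between R882H and WT cells 7 of 10 were lower, with a median of -0.11, which was -0.049 without R882H replicate 2. The gene with the smallest p of the whole set in any comparison stood against that direction.

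Cyp51, lanosterol demethylase, which removes the first methyl group from lanosterol, read -1.29, -0.93 and -0.88 in R882H cells, -2.01, -1.91 and -1.80 in WT cells and -1.35, -1.13 and -1.58 in EV cells. Every WT array lay below every R882H and every EV array, and the R882H and EV arrays overlapped. The difference between R882H and WT cells was 0.88 ± 0.18, a level 1.84-fold higher in R882H cells (limma unadjusted p = 0.000889, adjusted p = 0.348). It was 0.75 within the shared slide and 0.39 by the names of the authors' table. The difference between WT and EV cells was -0.55 ± 0.18 (limma unadjusted p = 0.0132, adjusted p = 0.778). On the slide with WT replicate 1 and the 3 EV arrays it was -0.65, and by the names of the authors' table -0.10. R882H and EV cells differed by 0.32 ± 0.18 (adjusted p = 0.579), so the WT arrays carried both larger differences.

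Nsdhl, a dehydrogenase of the later sterol demethylation, read -1.62, -1.79 and -1.53 in R882H cells, -1.15, -1.35 and -0.79 in WT cells and -1.19, -1.30 and -0.10 in EV cells. All R882H arrays lay below all others. The difference from EV cells was -0.79 ± 0.31 (limma unadjusted p = 0.0325, adjusted p = 0.523), but EV replicate 3 stood far above the other EV arrays. With all arrays of replicate 3 removed, an alternative added once the values had been seen, it was -0.46, and by the names of the authors' table -0.17. The difference from WT cells was -0.35 by those names. A second, dimmer Nsdhl probe gave -0.07 against EV cells and -0.54 against WT cells, where the first gave -0.55. Tm7sf2, a sterol reductase, averaged -2.36 ± 0.20 in R882H cells, -1.83 ± 0.51 in WT cells and -1.68 ± 0.63 in EV cells (SD, n = 3 each). Its R882H arrays lay below all EV arrays, with a difference of -0.68 ± 0.35 (limma adjusted p = 0.573) that was -0.18 for a second probe and -0.37 by the names of the authors' table.

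Sqle, squalene epoxidase and a rate-limiting step of the pathway, read 2.51, 2.12 and 2.30 in R882H cells, 2.72, 2.04 and 2.22 in WT cells and 2.18, 2.86 and 2.26 in EV cells. All 3 groups overlapped, and R882H cells differed from EV cells by -0.12 ± 0.25 (95% interval -0.68 to 0.43) and from WT cells by -0.018 ± 0.25 (interval -0.58 to 0.54). The authors' table gave -0.38 and -0.058 by its names. Fdft1, squalene synthase, averaged 0.45 ± 0.54 in R882H cells, 0.55 ± 0.93 in WT cells and 0.38 ± 0.17 in EV cells (SD, n = 3 each), with WT arrays spread from -0.28 to 1.56. With slide as a block its difference from EV cells was 1.84 for R882H cells, against 0.066 without it (limma adjusted p = 0.835 with the block). For WT cells it was 1.17, against 0.17 (limma adjusted p = 0.97 with the block). The 1.84 was not measured within a slide. It joins 1.17 for WT replicate 1 minus EV cells with 0.66 for R882H minus WT cells on another slide. Msmo1, the oxidase of the later demethylation, averaged 1.10 ± 0.47 in R882H cells, 1.21 ± 0.023 in WT cells and 1.08 ± 0.35 in EV cells. Hsd17b7, the ketoreductase that acts after Nsdhl, averaged -1.10 ± 0.51 in R882H cells, -1.43 ± 0.55 in WT cells and -1.06 ± 0.46 in EV cells. For these 3 genes the arrays of all groups overlapped.

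Ebp, the sterol isomerase, averaged 0.96 ± 0.21 in R882H cells, 1.25 ± 0.15 in WT cells and 1.24 ± 0.21 in EV cells (SD, n = 3 each). Dhcr7, which makes the last reduction to cholesterol, averaged 0.89 ± 0.13 in R882H cells, 0.85 ± 0.20 in WT cells and 1.14 ± 0.15 in EV cells, and Sc5d, the desaturase before it, 0.38 ± 0.15 in R882H cells, 0.53 ± 0.25 in WT cells and 0.33 ± 0.34 in EV cells. The largest difference among these 3 genes was that of Ebp between R882H and WT cells, -0.30 ± 0.18 (limma adjusted p = 0.676), with overlapping arrays. Lss, the cyclase that makes lanosterol, was well above background on R882H replicates 1 and 3 and on no WT or EV array, and no difference was computed for it.

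**Figure D3:**
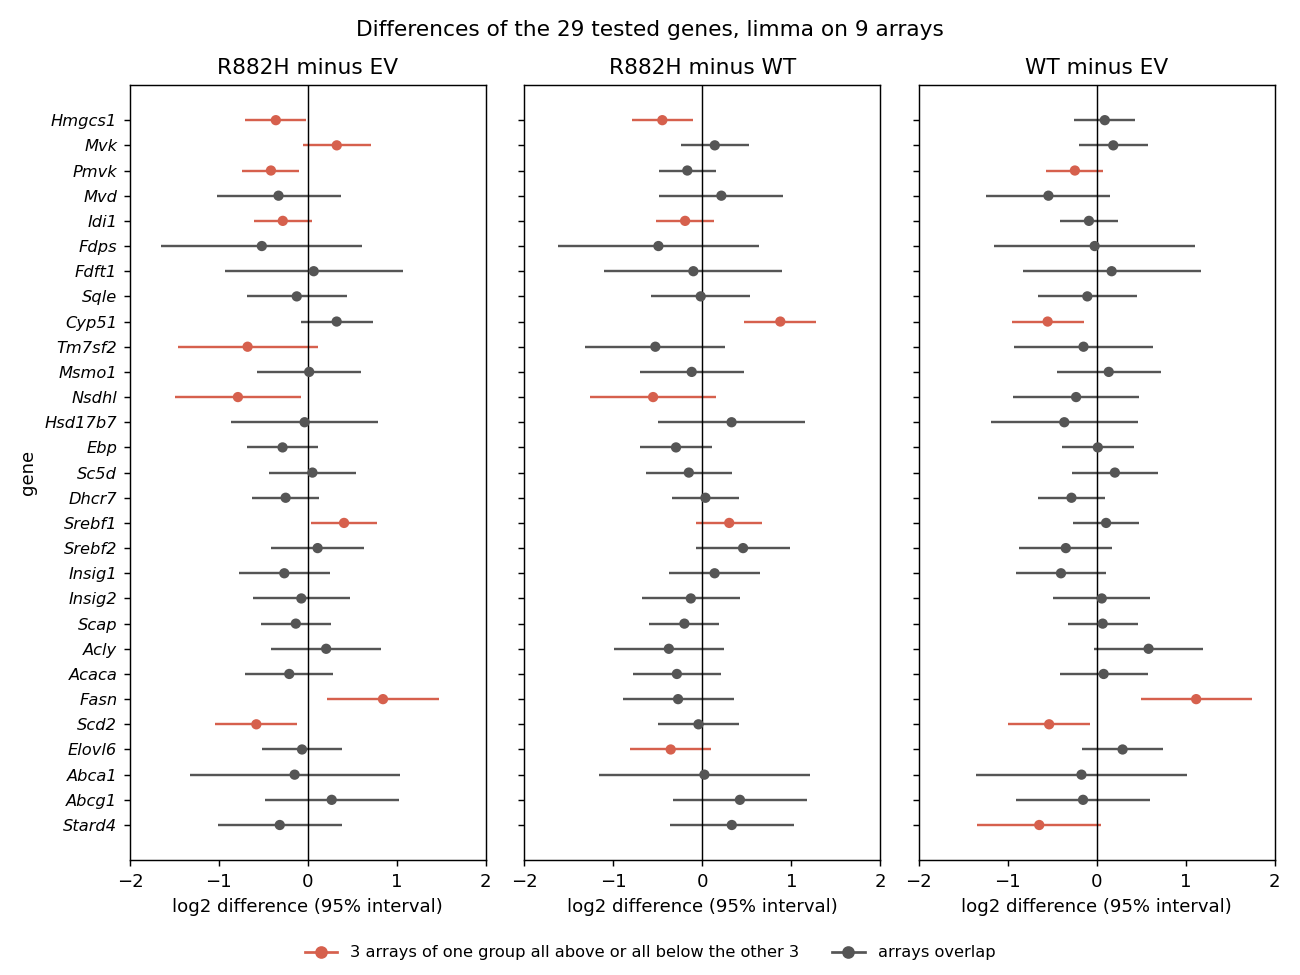
Log2 differences with 95% limma intervals for the 29 tested genes (rows, by role) in the comparisons R882H minus EV, R882H minus WT and WT minus EV. Red marks genes whose arrays did not overlap between the 2 groups, 9, 6 and 5 of 29. Cyp51 lies furthest right for R882H minus WT and Fasn for both comparisons with EV cells.

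Of the regulators, Srebf1 and Srebf2 were both higher on average in R882H cells than in the other groups. Srebf1 read -0.41, -0.20 and -0.35 in R882H cells, -0.59, -0.54 and -0.74 in WT cells and -0.53, -0.67 and -0.99 in EV cells. Every R882H array lay above every WT and EV array. The difference from EV cells was 0.41 ± 0.16 (limma unadjusted p = 0.0344, adjusted p = 0.523), a 1.33-fold higher level. From WT cells it was 0.30 ± 0.16 (adjusted p = 0.647), and 0.33 within the shared slide. By the names of the authors' table the 2 differences were 0.16 and 0.21.

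Srebf2 read 1.91, 1.68 and 1.50 in R882H cells, 1.51, 1.34 and 0.87 in WT cells and 1.48, 1.95 and 1.34 in EV cells. The R882H arrays lay above the WT arrays except that replicate 3 was just below WT replicate 1, and they lay within the EV range. The difference from WT cells was 0.46 ± 0.23 (limma unadjusted p = 0.0793, adjusted p = 0.628) and turned to -0.18 by the names of the authors' table. A second Srebf2 probe gave 0.14. From EV cells the difference was 0.11 ± 0.23 (interval -0.41 to 0.63), with a sign that turned when arrays were scaled to their median, by the authors' table and without EV replicate 3.

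Insig1, itself an SREBP target, averaged -1.23 ± 0.32 in R882H cells, -1.37 ± 0.29 in WT cells and -0.97 ± 0.22 in EV cells (SD, n = 3 each). Insig2 averaged -0.35 ± 0.19 in R882H cells, -0.22 ± 0.48 in WT cells and -0.27 ± 0.13 in EV cells, and a second Insig2 probe, which matches another transcript record, gave -0.91 between R882H and WT cells (limma unadjusted p = 0.0244) against -0.13 for the first. On that second probe every R882H array lay below every WT array. Scap averaged 0.079 ± 0.092 in R882H cells, 0.28 ± 0.17 in WT cells and 0.21 ± 0.25 in EV cells. On the brightest probes of these genes the arrays of all 3 groups overlapped, and the lowest limma adjusted p among their comparisons was 0.686, for Insig1 between R882H and EV cells.

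By their brightest probes, the 5 tested fatty acid genes were all lower in R882H than in WT cells, with a median of -0.29, and 4 of 5 were higher in WT than in EV cells, with a median of 0.29. Both comparisons share the WT arrays, and another probe had the opposite sign for Acaca in both and for Acly in the second. Fasn, among the 4 that were higher in WT cells, passed the filter only through the groups where it was higher. The first count was 4 of 5 with quantile or cyclic loess normalization, without R882H replicate 1 and without WT replicate 3, and 2 of 5 by the names of the authors' table. The second count was 3 of 5 without WT replicate 3, without EV replicate 2, without replicate 3 of every group and by the names of the authors' table. The second median was 0.11 without EV replicate 1, 0.465 without EV replicate 2, 0.18 with the mean of detected probes and 0.087 by the names of the authors' table. The first median was -0.39 to -0.19 under the settings based on the scanner output and 0.10 by the names of the authors' table. Arrays of R882H and WT cells did not overlap for 1 of the 5 (20%), Elovl6, against 15.4% of all genes.

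Fasn, fatty acid synthase, read -3.18, -2.54 and -2.91 in R882H cells, -2.22, -2.44 and -3.16 in WT cells and -3.62, -3.99 and -3.56 in EV cells. All R882H and all WT arrays lay above all EV arrays. The probe was dim, well above background on every R882H and WT array but on 1 of the 3 EV arrays, so the EV level and the sizes below are uncertain, and the probe passed the filter only through the groups where it was higher. WT cells differed from EV cells by 1.12 ± 0.27 (limma unadjusted p = 0.00295, adjusted p = 0.718), and R882H cells by 0.84 ± 0.27 (unadjusted p = 0.0136, adjusted p = 0.512). With normexp background correction, which draws dim values together, the differences were 0.33 and 0.18. On the slide with WT replicate 1 and the EV arrays WT minus EV was 1.51. By the names of the authors' table these differences were 0.21 for WT and 0.40 for R882H cells. R882H and WT cells differed by -0.27 ± 0.27, within overlapping arrays, and by 0.19 by the names of the authors' table.

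Scd2, a stearoyl-CoA desaturase, went the opposite way at 3.24, 3.45 and 3.75 in R882H cells, 3.42, 3.34 and 3.81 in WT cells and 3.83, 4.21 and 4.14 in EV cells. EV arrays lay above all R882H and WT arrays. R882H cells differed from EV cells by -0.58 ± 0.20, a level 1.49-fold lower (limma unadjusted p = 0.0191, adjusted p = 0.523). WT cells differed from EV cells by -0.54 ± 0.20 (unadjusted p = 0.027, adjusted p = 0.778), and by -0.64 on the slide they shared. By the names of the authors' table these values were -0.15 and -0.25. Scd1, the related desaturase of liver and fat, was well above background on R882H replicate 1 and WT replicate 2 and on no EV array. Probe sequences were not used here, so cross-hybridisation between these related genes was not examined.

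Elovl6, which extends palmitate, read 2.25, 1.90 and 2.01 in R882H cells, 2.37, 2.51 and 2.35 in WT cells and 1.77, 2.47 and 2.12 in EV cells. Every R882H array lay below every WT array, with a difference of -0.36 ± 0.20 (limma unadjusted p = 0.109, adjusted p = 0.656), and the EV arrays spanned both. The authors' table gave -0.21 by its names. Acly, which makes cytosolic acetyl-CoA from citrate, read 1.40, 1.68 and 1.20 in R882H cells, 1.81, 2.31 and 1.30 in WT cells and 0.92, 1.39 and 1.36 in EV cells. WT cells differed from EV cells by 0.58 ± 0.27 (limma unadjusted p = 0.061, adjusted p = 0.847) with overlapping arrays, and by 0.31 by the names of the authors' table. The 2 Acly probes disagreed. The second gave -0.37 for that difference, and -0.73 where the first gave 0.21 between R882H and EV cells. For R882H minus EV the authors' table gave 0.015 by its names.

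Acaca, the carboxylase that makes malonyl-CoA, averaged 0.62 ± 0.14 in R882H cells, 0.91 ± 0.39 in WT cells and 0.83 ± 0.21 in EV cells (SD, n = 3 each). Its 3 probes also disagreed between R882H and EV cells, at -0.21, -0.55 and 0.59, so neither Acly nor Acaca had a direction common to its probes in that comparison. Of 6 markers of adipocytes and stroma, Cxcl12 was well above background on 8 of 9 arrays, Col3a1 on 4, Adipoq and Lepr on 3, Col1a1 on 2 and Cfd on 1, and their summed signal was 0.43 to 0.94 in R882H cells, 0.36 to 0.77 in WT cells and 0.40 to 0.72 in EV cells.

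Of the efflux and transfer genes, all 3 were higher on average in R882H than in WT cells, with a median of 0.33, and lower in WT than in EV cells, with a median of -0.17. The first count was 2 of 3 with arrays scaled to their median, with normexp, with slide as a block, by the names of the authors' table and without R882H replicate 2, WT replicate 1, WT replicate 3 or replicate 3 of every group. The first median was 0.098 without R882H replicate 3, 0.059 with slide as a block and 0.011 by the names of the authors' table. The second median was -0.62 without WT replicate 2 and turned to 0.22 without EV replicate 2 and to 0.089 without WT replicate 3. Abca1, which exports cholesterol to apolipoprotein A-I, read -0.052, 0.53 and 0.056 in R882H cells, -0.12, 1.06 and -0.47 in WT cells and -0.087, 1.44 and -0.37 in EV cells. Replicate 2 was highest in each group, and R882H cells differed from EV cells by -0.15 ± 0.52 and from WT cells by 0.024 ± 0.52, with intervals of -1.33 to 1.03 and -1.16 to 1.21. The authors' table gave -0.38 and -0.17 by its names. Abcg1, which exports cholesterol to HDL, read 2.90, 3.02 and 2.82 in R882H cells, 2.87, 2.60 and 2.00 in WT cells and 2.22, 3.39 and 2.33 in EV cells. R882H arrays were tight, within the EV range, and differed from WT cells by 0.42 ± 0.33 (95% interval -0.33 to 1.17, limma adjusted p = 0.75), and by 0.011 by the names of the authors' table.

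Stard4, a carrier of cholesterol between membranes, read -2.69, -1.78 and -1.54 in R882H cells, -2.41, -2.26 and -2.33 in WT cells and -1.98, -1.83 and -1.25 in EV cells. WT arrays lay below all EV arrays, with a difference of -0.65 ± 0.31 (limma unadjusted p = 0.0659, adjusted p = 0.859) and -0.35 for a second probe. The difference was 0.0018 by the names of the authors' table. Between R882H and EV cells the probes disagreed, at -0.32 and 0.63. Between R882H and WT cells both were positive, at 0.33 and 0.98. By the names of the authors' table R882H cells differed by 0.19 from EV cells and by 0.19 from WT cells. Macrophage markers, from cells that express these transporters strongly, summed to 1.15 to 1.62 in R882H cells, 1.01 to 1.31 in WT cells and 1.16 to 1.32 in EV cells.

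For some genes the spread within a group followed the replicate number that the labels give. The same number was highest in all 3 groups for 5 of the 29 genes (17.2%), against 20.8% of all genes, and lowest for 6 of 29 (20.7%), against 20.2% of all genes. The first 5 were Abca1 and Acly for number 2, and Acaca, Fdps and Nsdhl for number 3. The other 6 were Sc5d and Stard4 for number 1, Acaca, Ebp and Nsdhl for number 2, and Srebf2 for number 3. These shares are near those of all genes.

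Fdps, which makes farnesyl diphosphate for sterols and prenylation, was one of these, at 0.69, 0.36 and 1.25 in R882H cells, 0.68, 0.77 and 2.33 in WT cells and 0.92, 0.86 and 2.07 in EV cells. Replicate 3 stood above the other replicates in every group. R882H cells differed from EV cells by -0.52 ± 0.50 (95% interval -1.65 to 0.61). The difference was -1.63 with slide as a block, which comes through the WT arrays, and 0.49 by the names of the authors' table. EV replicate 3 and WT replicate 3 also stood apart from the other 7 arrays over all genes, at -53.1 and -33.9 on a first principal component holding 29.6% of the variance, where the others were at -8.39 or above. What these arrays share besides the number was not tested.

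**Figure D4:**
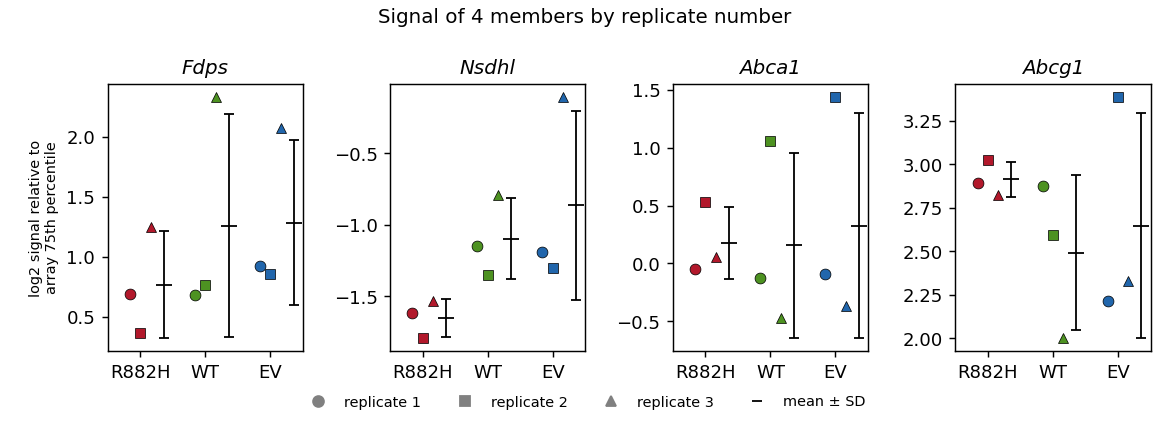
Log2 signal over the 75th percentile of each array for Fdps, Nsdhl, Abca1 and Abcg1, with a point per array (shape gives the replicate number) and the mean ± SD of each group, n = 3 each. Replicate 3 is highest in every group for Fdps and Nsdhl, replicate 2 is highest in every group for Abca1, and Abcg1 follows that order in R882H and EV but not in WT cells.

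Genes next to these in the pathways gave no call either, with 0 genes at an adjusted p under 0.05 in limma in any of 6 lists. Over all genes tested, 52.2% were lower in R882H than in EV cells and 51.8% were lower than in WT cells. The counts of these lists under other settings are not given here. The list of acetyl-CoA and NADPH supply also held partners of fatty acid synthase. It had 6 of 8 genes tested, and Me1 and Thrsp were not. Of the 6, 4 were lower in R882H than in EV cells (median -0.12), while Acss2 (0.66) and Mlycd (0.15) were higher. Mcat, the mitochondrial malonyl transferase, was lowest in p at -0.52 ± 0.25 against EV and -0.68 ± 0.25 against WT cells (adjusted p = 0.561 and 0.553). For WT minus EV it was Slc25a1, the mitochondrial citrate carrier, at -0.32 ± 0.17 (adjusted p = 0.874). In desaturation and elongation, 7 of 10 were lower in R882H than in EV cells (median -0.13). There Hacd1, a dehydratase of elongation, gave -0.30 ± 0.16 against EV and -0.43 ± 0.16 against WT cells, and Hsd17b12, its ketoreductase, gave -0.54 ± 0.17 for WT minus EV.

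The list of the isoprenoid branch, which turns pathway intermediates into prenyl groups and ubiquinone, also held 3 enzymes that make acetoacetyl-CoA ahead of mevalonate, Acat1, Acat2 and Aacs, all lower in R882H cells than in EV and WT cells. With these included, it was lower in R882H than in EV cells for 7 of 10 genes (median -0.27) and lower than in WT cells for 9 of 10 (median -0.25). Fnta, a subunit of prenyl transferases, gave -0.45 ± 0.22 against EV cells (limma adjusted p = 0.563), but its other detected probe had the opposite sign. Pdss1, of ubiquinone synthesis, gave -0.60 ± 0.27 against WT cells (limma adjusted p = 0.62). Its R882H replicate 1 read 0.11, against 1.17 and 0.85 on the other R882H arrays. Pggt1b, a geranylgeranyl transferase subunit, gave 0.67 ± 0.25 for WT minus EV (limma adjusted p = 0.778). Its EV replicate 2 read -1.08, against -0.13 and -0.29 on the other EV arrays. The next list held machinery that cleaves SREBPs or degrades sterol-regulated proteins, together with Sec23a and Sec24a. It was lower in R882H than in EV cells for 8 of 10 genes (median -0.16) and lower than in WT cells for 9 of 10 (median -0.22). Some lower values in both lists were near 0, such as -0.013 for Ggps1 and -0.0091 for Erlin2 against EV cells. Mbtps2, the protease that makes the second cut in SREBPs, gave -0.72 ± 0.18 between R882H and WT cells (unadjusted p = 0.00373, adjusted p = 0.491) and 0.59 ± 0.18 between WT and EV cells. Ubxn8, a factor of protein degradation at the endoplasmic reticulum, gave -0.62 ± 0.22 between R882H and EV cells (adjusted p = 0.523).

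Of 8 genes of LXR and its targets, 6 were higher in R882H than in EV cells (median 0.17), and Mylip and Lpcat3 were lower. The largest difference was that of Rxra (1.09), whose EV values were low and spread, at -4.21, -2.49 and -4.66. Its detection on each array is not given here, so its place in this count is uncertain. Rxrb, counted as higher, differed by 0.014. Nr1h3, which encodes LXR-alpha, gave 0.59 ± 0.23 against EV and 0.52 ± 0.23 against WT cells (limma adjusted p = 0.523 and 0.62), and every R882H array lay above every WT array. Mylip, a ligase that degrades lipoprotein receptors, gave -0.73 ± 0.40 for WT minus EV. Among uptake, storage and oxysterol genes, with 9 of 12 tested, 6 were lower in R882H than in EV cells (median -0.18). Soat2, which esterifies cholesterol, read -2.07, -2.18 and -2.04 in R882H cells, -2.24, -2.47 and -2.45 in WT cells and -3.23, -3.68 and -2.71 in EV cells. R882H arrays lay above all WT arrays and these above all EV arrays. The EV values of Soat2 were low. Its detection on each array and its values under other settings are not given here, so the sizes below are uncertain. The difference from EV cells was 1.11 ± 0.23 for R882H cells (unadjusted p = 0.00111, adjusted p = 0.33) and 0.82 ± 0.23 for WT cells (adjusted p = 0.746). Scarb1, a receptor for HDL, gave -0.56 ± 0.17 between R882H and WT cells (adjusted p = 0.55).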

How the data were processed

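Expression was measured on 9 Agilent arrays with 1 colour, Cy3, 3 for each group. Per the file headers, spot values came from Agilent Feature Extraction, version 10.10.1.1, and the authors deposited a linear processed intensity per spot, from which background and a spatial trend had been removed. Spots flagged as outliers, 154 to 184 per array, were left out, and a flag told which were well above background. The median pixel intensity was 79 to 88, with 24 to 29 locally around the spots.

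The log2 of the processed intensity was used, less the 75th percentile of the array, with replicate spots of a probe averaged. Symbols came through RefSeq accessions for 27235 of 55681 probes. Probes detected well above background throughout a group numbered 31242, of which 17033 had a symbol, and the brightest per symbol gave 13120 genes. limma 3.58.1 in R 4.3.3 was fitted to all 9 arrays (6 residual and 2.81 prior degrees of freedom), with calls at a Benjamini-Hochberg adjusted p below 0.05. The median SE between R882H and EV cells was 0.232 log2 units. The fit was tested on simulated data. The number of arrays limits the precision.

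The genes and gene lists were chosen with earlier results of these data known. Genes given array by array were, per comparison, the 3 of smallest p in each direction, with Srebf2, Srebf1, Sqle, Fasn, Scd1, Scd2, Abca1 and Abcg1 added. Scd1 was given by its detection, and Fdps and Soat2 were given array by array after their values were seen. In each neighbouring list the gene of smallest p was named.

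A value table deposited by the authors gave log2 values of 41854 probes, each centred on its median over the columns. Its making is not given in the sources used. Its column medians were 0 except for 1 of -0.0021. It served as an alternative, with columns grouped by their names. Normexp correction with an offset of 50 used the median pixel signal in place of the planned mean. Other alternatives were quantile, cyclic loess and median scaling, other probe filters, the mean of probes, slide or replicate number as a block, array weights, and leaving out arrays.

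Same-numbered deviations from the group means correlated at 0.116, 0.222 and 0.325 between WT and EV cells, all above the limit of 0.1. Such correlations do not establish that the replicate numbers pair these 2 groups, and the labels do not state a pairing. With replicate number as a block, 5 of the 29 genes had an unadjusted p under 0.05 between WT and EV cells in limma, against 3 without it.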

Additional observations from a re-analysis of the deposited data

How the results depend on the processing

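No gene was called at an adjusted p under 0.05 in limma under any setting run, so no call could be lost or gained. Between R882H and EV cells, 6 lipid genes were reported at an unadjusted p under 0.05 in limma. The number was 2 with cyclic loess, 3 with slide as a block and 1 by the authors' table. With the slide block these were Fasn, Pmvk and Fdft1, and by the table Mvk. Fdft1 and Mvk were not among the 6. Between R882H and WT cells the number was 4 with normexp, 5 with the mean of detected probes, 4 with the replicate block and 0 by the authors' table, against 2. Between WT and EV cells it was 5 with normexp, 5 with the replicate block, 0 by the authors' table and, in a setting added after seeing the data, 6 without number 3 in any group, against 3. Over all genes the R882H minus EV count of 1187 was 1786 with the replicate block, 763 with a block for slide, 2125 with array weights and 614 by the authors' table. The R882H minus WT count of 1055 was 1590 with array weights and 321 by the authors' table. Scaling to the array median put the median of all genes at -0.17 for R882H minus EV and -0.11 for R882H minus WT. It took the R882H minus EV lipid median to -0.29, which is -0.12 relative to all genes, as before. The WT minus EV lipid median of -0.088 became 0.012 with the mean of probes. Leaving out 1 array at a time gave 665 (without R882H replicate 2, with the next lowest without R882H replicate 1) to 1423 genes, 1 to 6 lipid genes and lipid medians of -0.24 (without EV replicate 1) to -0.087 (without R882H replicate 3) for R882H minus EV. It gave 707 to 1269 genes, 1 to 4 lipid genes and medians of -0.15 to -0.083 for R882H minus WT, and 651 to 1282 genes (the highest without WT replicate 3), 2 to 6 lipid genes and medians of -0.21 to 0.037 for WT minus EV. Among single genes, 1538 values under alternatives lay within 1 SE of that reported and 112 did not. The cause of these shifts was not tested. Same-numbered samples correlated at 0.088, 0.198 and 0.279 between R882H and EV cells and at 0.071, 0.137 and 0.239 between R882H and WT cells. In both, number 1 fell below the limit of 0.1. These values do not settle whether samples were paired. The replicate block gave no call in any comparison. Fasn, Lss and Scd1 were near background, which limits what can be said of them.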

Other observations

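In the authors' deposited value table, the column named for EV replicate 3 held the values of WT replicate 1, and that named for WT replicate 1 held those of EV replicate 3. The column named for WT replicate 2 held those of R882H replicate 1, and that named for R882H replicate 3 held those of WT replicate 3. The other 3 displaced columns held another array of their own group, and the columns of EV replicates 1 and 2 held their own. Each match was to the array with the highest correlation, at 0.99996 or above. In the order of the table's columns, the arrays held were those of EV, then R882H, then WT, each in the order of their replicate numbers, whereas the names of the columns alternate between groups. Which of the labels is right was not tested.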
